A study of Rattus with 18 samples.

Results

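The arrays of glomerular RNA taken on day 2 after an antibody against Thy1 were set against those taken on day 1. The 6 arrays are those whose titles give killing at day 2 (replicates 2, 3 and 4) and at day 1 (replicates 1, 4 and 5), of 18 arrays in all, 3 for each of days 0 to 5. The rats were of the strain labelled SD and weighed 200 g; both groups had been injected with the anti-Thy1 antibody, and the day 0 controls with saline. No other agent or allele is given. The labels speak of 3 glomeruli from each of 6 rats per time point but tie no array to particular rats, so the p-values measure the spread between arrays, which may be technical. RNA was labelled with Cy3 and hybridised to single-colour Agilent arrays of 41012 probes. The comparison asks which transcripts set the second day of the disease apart from the first, under the working name onset of mitosis.

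Thy1 is a surface protein of rat mesangial cells, which contract and support the capillary tuft. The antibody lyses these cells, and those that survive later divide and refill the tuft. A dividing cell first copies its DNA, with the MCM helicase and the polymerases, then enters mitosis under cyclins A and B bound to Cdk1, builds a spindle from microtubules and kinesin motors, attaches its chromosomes by their kinetochores, and leaves mitosis when the anaphase-promoting complex marks cyclins and securin for destruction.

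Values are log2 processed intensities minus the array's own 75th percentile, so that 0 is the level of that percentile. A change is the difference of day means in log2 units, with the standard error (SE) of a limma model over all 18 arrays, n = 3 arrays per day, and "passed the test" means a Benjamini-Hochberg adjusted p under 0.05 over 23209 genes and transcripts. The number of arrays limits the precision. An array held 22645 (day 1 replicate 4) to 28530 probes well above background. The arrays of day 2 and day 4 were scanned on another day than those of days 0, 1, 3 and 5. All 3 day 2 arrays lay on 1 slide, and the day 1 arrays on 2 others. Scan day, slide and group therefore cannot be told apart between days 2 and 1, and no value within a scan day exists for this pair. The defining podocyte gene Nphs1 (nephrin) stood at 4.81, 4.64 and 4.74 on day 2 and at 4.44, 4.54 and 4.61 on day 1. Proximal tubule transcripts were also above background, with median levels over 20 markers of 4.54 to 5.39 on day 2 and 4.82 to 5.43 on day 1.

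Few genes passed the test. On day 2, 41 genes and transcripts rose (0.177% of those tested) and 49 fell (0.211%), together 90 (0.388%), and 51 of these have a current symbol. All 90 had day 2 values that did not overlap those of day 1, which is likely for genes picked by a test on these same values. At an unadjusted p under 0.05, 1366 stood higher (5.89%) and 1913 lower (8.24%). The count of 90 depended on single arrays. Leaving out 1 day 2 array gave 10 (replicate 4), 11 (replicate 3) or 20 calls (replicate 2), and leaving out 1 day 1 array gave 13 (replicate 4), 20 (replicate 5) or 81 (replicate 1). Of all genes tested, 11.1% had every day 2 array above every day 1 array and 15.4% had every day 2 array below, and the median change of all genes was -0.05.

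Genes of mitosis stood higher on day 2 as a group, although 2 of them passed the test. Of 120 genes listed for mitotic entry, spindle, kinetochore, chromosome condensation and the anaphase-promoting complex, 101 were tested. Every day 2 array stood above every day 1 array in 77 of the 101 (76.2%), against 11.1% of all genes, and 3 stood below. The median change of the 101 was 1.75, against -0.05 for all genes, and 72 of them were over 1. At an unadjusted p under 0.05, 68 of the 101 stood higher (5.89% of all genes did) and 2 lower (8.24%). Fewer cells of a type and less RNA per cell cannot be told apart in such bulk samples, and the same holds for more. The lists were chosen with earlier results of these data known, and their counts are a description.

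**Figure D1:**
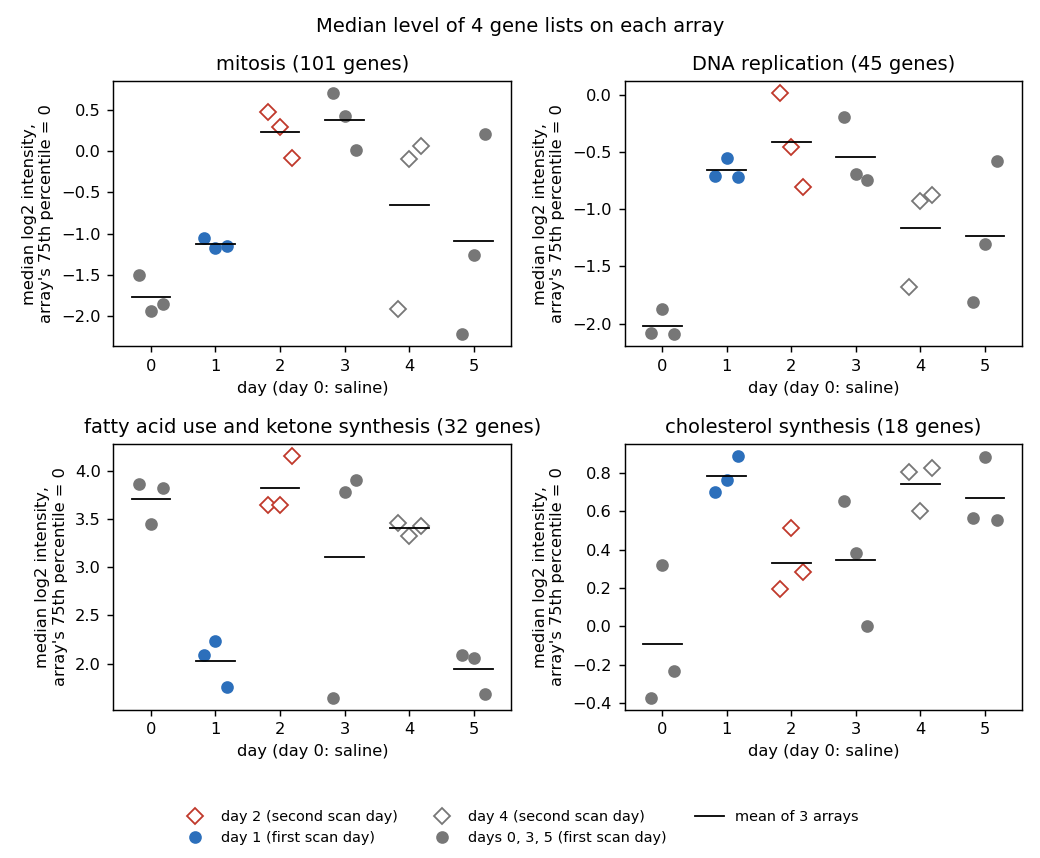
Median log2 intensity (array's 75th percentile = 0) of 4 gene lists on each of the 18 arrays by day; open diamonds mark the second scan day, and a line marks the mean of 3 arrays. The mitosis medians are 0.48, 0.30 and -0.09 on day 2 and -1.06, -1.18 and -1.16 on day 1, while the medians of days 4 and 5 are spread between -2.22 and 0.21.

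The cyclins and kinases of mitotic entry gave the highest median of the mitosis groups, 1.95 over 23 genes, with none past the test. Of these, 20 (87.0%) stood above on every array pair, against 11.1% of all genes. Ccnb1, cyclin B1, stood at 1.11, 1.13 and 0.72 on day 2 and at -0.93, -1.29 and -1.16 on day 1. Cdk1, its kinase partner, stood at 4.98, 4.99 and 4.37 on day 2 and at 2.74, 2.76 and 2.68 on day 1. In both genes every day 2 array was clear of every day 1 array by more than the range within either day. The changes were 2.11 ± 0.85 for Ccnb1 (adjusted p = 0.271) and 2.05 ± 0.77 for Cdk1 (adjusted p = 0.238, limma). Ccnb2, cyclin B2, had the largest difference of the group, 3.01 ± 0.79 (adjusted p = 0.103), with 0.87, 0.59 and -0.09 on day 2 against -2.21, -2.65 and -2.81 on day 1. The other kinases and factors named for this comparison had changes of 2.25 for Aurkb, 2.15 for Ccna2 (cyclin A2), 2.13 for Plk1, 1.92 for the checkpoint kinase Bub1, 1.48 for Aurka, 1.28 for Foxm1 (a transcription factor of the late cell cycle) and 0.96 for Mybl2, none past the test. Wee1, the kinase that holds Cdk1 inactive, had a change of 0.06; it is singled out here because its values were seen to be apart from the others.

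Spindle and cytokinesis genes followed with a median of 1.94 over 27 genes. Of these, 24 (88.9%) stood above on every array pair, against 11.1% of all genes. Kif11, the kinesin that pushes the spindle poles apart, rose by 1.30 ± 0.24 (adjusted p = 0.0333), with -0.22, -0.17 and -0.01 on day 2 against -1.51, -1.25 and -1.53 on day 1. Its 3 control arrays stood at -0.63, 0.26 and -0.04, so the day 2 level lay within the range of the saline controls. Tpx2, which brings the kinase Aurka to the spindle, stood 2.01 ± 0.60 higher (adjusted p = 0.144). Prc1, which bundles the midzone microtubules of late mitosis, and Kif20a, a kinesin of cytokinesis, stood 2.77 and 2.27 higher (both chosen after their values were seen). Nusap1 and Kif2c, both of the spindle, were well above background on every day 2 array and on no day 1 array, which gives them as at least 3.04-fold and at least 2.35-fold higher. Hmmr went the other way, at -2.73, -3.18 and -3.21 on day 2 and -2.55, -2.72 and -1.54 on day 1, but its other probe had a change of 2.23, so its direction is uncertain.

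**Figure D2:**
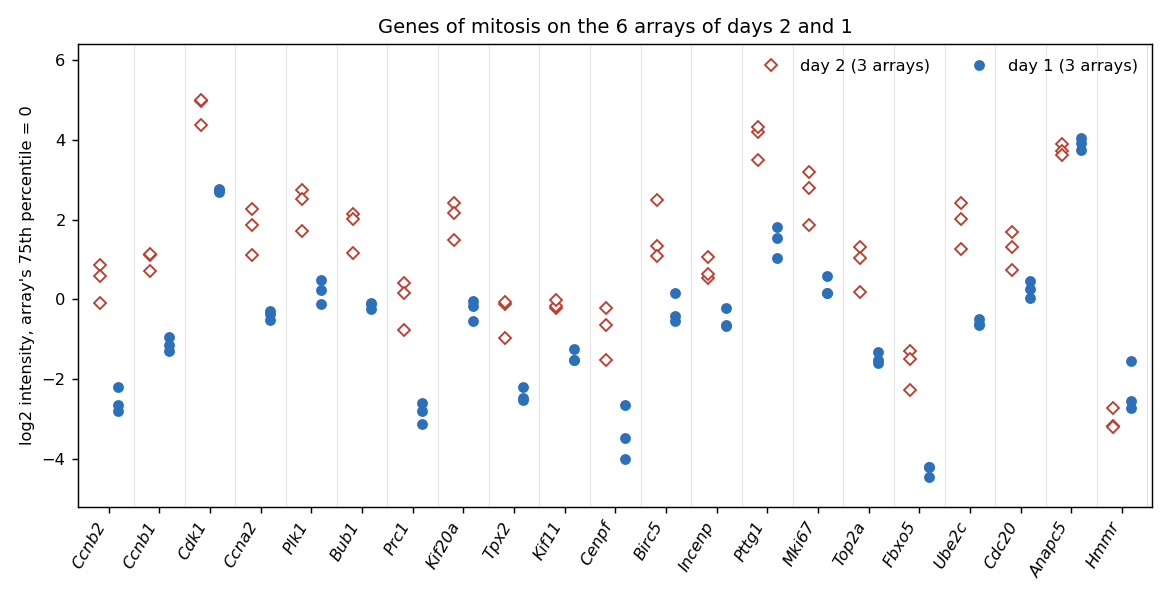
Log2 intensity (array's 75th percentile = 0) of 21 mitosis genes on the 3 arrays of day 2 (open diamonds, left) and of day 1 (filled circles, right). The groups overlap only in Anapc5 among the genes shown, Hmmr alone has day 2 below day 1, and in most genes the lowest diamond is day 2 replicate 4, as in 91 of the 101 mitosis genes.

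The probes of Kif11 are shown because the 2 of them differ in size of change and in brightness. Each is given by its first 30 of 60 bases, from the deposited array design with its positions on build rn4.
Kif11, representing probe: aaactggtttaacaaagcttaattgctttc
Kif11, other probe: acgacaattgatggagaagagcttgttaaa
The representing probe maps to chr1:241715804-241715863 on the plus strand and gave the change of 1.30. The other probe is placed within chr1:241682887-241683187 on the plus strand, was well above background on 3 of 3 day 2 arrays and 0 of 3 day 1 arrays, and read -2.34, -3.37 and -3.94 on day 2 against -6.91, -5.85 and -6.83 on day 1. Both probes were higher on day 2 without overlap. On the saline arrays the other probe read -6.11, -5.83 and -5.77, below its day 2 values, unlike the representing probe.

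Kinetochore and checkpoint genes had a median of 1.61 over 22 genes. Of these, 18 (81.8%) stood above on every array pair, against 11.1% of all genes. Incenp, the scaffold that carries the kinase Aurkb on chromosomes, rose by 1.26 ± 0.25 (adjusted p = 0.0431), with 1.05, 0.53 and 0.64 on day 2 and -0.23, -0.67 and -0.64 on day 1. Birc5, survivin of the same complex, stood 1.91 ± 0.59 higher (adjusted p = 0.153). Its day 2 arrays read 2.49, 1.35 and 1.08 and its day 1 arrays -0.41, -0.54 and 0.15, with no overlap. Zwint had a change of -0.34 and Bub3 of 0.20, the lowest of the group, as seen in the values.

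Chromosome condensation genes had a median of 1.75 over 15 genes. Of these, 12 (80%) stood above on every array pair, against 11.1% of all genes. Mki67, the Ki-67 protein that coats mitotic chromosomes, stood at 3.18, 2.79 and 1.87 on day 2 and at 0.57, 0.15 and 0.15 on day 1. Top2a, the topoisomerase that untangles sister DNA, stood at 1.31, 1.03 and 0.19 on day 2 and at -1.33, -1.52 and -1.59 on day 1. Both genes had a change of 2.32, with SE 0.68 and adjusted p = 0.14 for Mki67 and SE 0.76 and adjusted p = 0.176 for Top2a. The anaphase-promoting complex had the lowest median of the mitosis groups, 0.09 over 14 genes. On every array pair 1 (7.1%) stood below, against 15.4% of all genes, and 3 (21.4%) stood above, against 11.1% of all genes. Those 3 were Fbxo5, an inhibitor of the complex, with a change of 2.60, Ube2c, its ubiquitin-conjugating enzyme, with 2.47, and Cdc20, its activator in mitosis, with 1.00; they are named from their values. The core subunits Anapc1, Anapc2, Anapc5, Anapc7 and Anapc10 lay between -0.44 and 0.13.

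**Figure D3:**
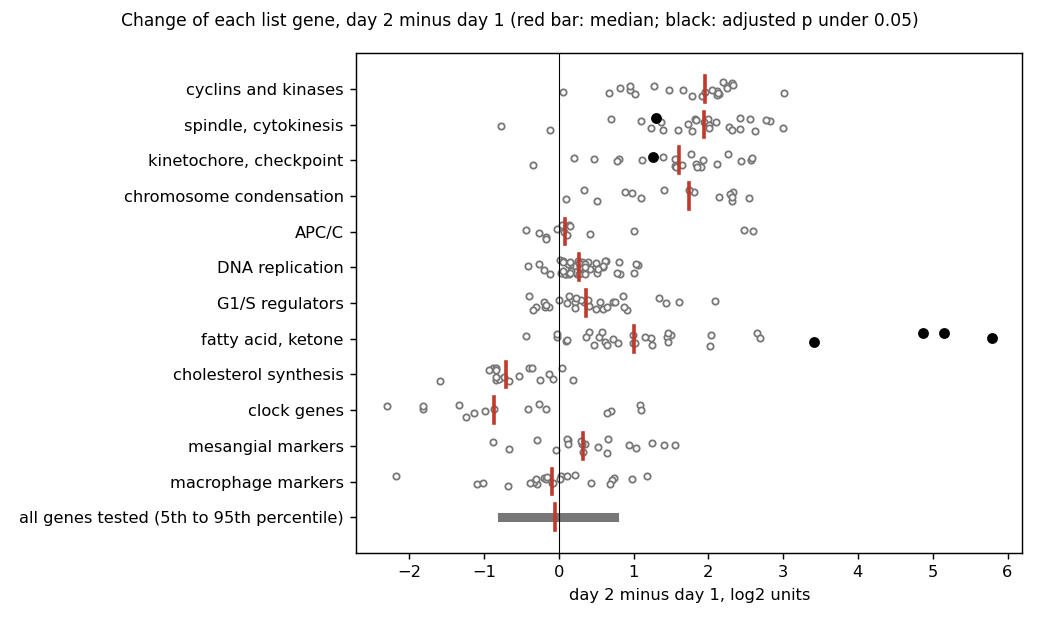
Change of each gene (day 2 minus day 1, log2 units) in 12 gene lists, with the list median as a red bar and genes past the test in black; the bottom bar spans the 5th to 95th percentile of all genes tested. The 4 leading mitosis groups have medians of 1.61 to 1.95, the anaphase-promoting complex 0.09, DNA replication 0.27 and all genes -0.05.

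The spread that the test used was larger than the spread within the 2 days compared. The mitosis median ranged from -1.91 to 0.06 between the arrays of day 4 and from -2.22 to 0.21 between those of day 5, against -0.09 to 0.48 on day 2 and -1.18 to -1.06 on day 1. In a fit of the 6 arrays of days 2 and 1 alone, the median SE of the mitosis genes was 0.273, against 0.661 with 18 arrays, and 39 of the 101 passed, all higher, where 1.04% of all genes passed as higher. In a fit of the 9 arrays of days 1, 2 and 3, 53 passed, all higher, where 0.659% of all genes did. That fit of 9 arrays was chosen after seeing the data. By groups, the fit of 6 arrays called 11 of 23 cyclins and kinases, 14 of 27 spindle genes, 6 of 22 kinetochore genes, 6 of 15 condensation genes and 2 of 14 of the anaphase-promoting complex. Over all settings tried, the adjusted p of Mki67 ran between 0.0422 and 0.444, that of Ccnb1 between 0.0243 and 0.481, and that of Kif11 between 0.0076 and 0.303.

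Detection touches these counts as well. Of the 101 mitosis genes, 78 were well above background on all day 1 arrays, 15 on some and 8 on none. Among the 78, the median change was 1.56 and 59 stood above on every array pair. With background corrected by normexp from the raw spot and local background intensities, the median of mitosis genes was 0.63, against -0.28 for all genes. In that setting 42 mitosis genes stood above on every array pair. The 11.1% of all genes holds for the main values, and no such share is given for these 59 and 42.

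Day 3, which shared the scan day of day 1, gives the level on a second later day. The mitosis genes had a median change of 1.92 between days 3 and 1 and of 1.75 between days 2 and 1, and these comparisons share the day 1 arrays. Between days 3 and 2 their median was 0.12, and of all genes 75 passed (0.323%). Ccnb1 had a change of 3.06 on day 3, Cdk1 of 2.43, Mki67 of 1.77, Top2a of 2.46 and Incenp of 1.34, each against day 1. Of these and all other mitosis genes none passed between days 3 and 1, where 1 gene of all tested passed (0.00431%); in the fit of 9 arrays 60 mitosis genes did, as higher, where 1.35% of all genes did. Against day 0, 85 of the 101 rose on day 2 (20.8% of all genes rose) and 14 on day 1 (19.2%). Their median change was 2.27 for day 2 and 0.61 for day 1, both against the same saline arrays.

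Genes of DNA replication and of the step into S phase differed less between days 2 and 1. Of 47 replication genes 45 were tested, none passed and the median change was 0.27. Of the 45, 11 (24.4%) stood above on every array pair, against 11.1% of all genes. Mcm5 and Mcm6, subunits of the replicative helicase, had changes of 0.10 ± 0.69 and 0.08 ± 0.44, with groups that overlapped. Pcna, the polymerase clamp, stood at 4.11, 3.91 and 3.61 on day 2 and at 3.25, 3.52 and 3.35 on day 1, a change of 0.50 ± 0.35 (adjusted p = 0.559). Rrm2, a subunit of ribonucleotide reductase, had a change of 1.01 ± 0.60, with overlapping groups. Against day 0, the replication list had a median change of 1.28 on day 1, with 31 of 45 genes risen (19.2% of all genes rose). On day 2 its median change was 1.56, with 38 of 45 risen (20.8% of all genes rose), against the same controls.

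Regulators of the G1/S step had a median of 0.37 over 30 genes. On every array pair 15 (50%) stood above, against 11.1% of all genes. Ccne1, cyclin E1, had a change of 0.91 ± 0.63 and Ccnd1, cyclin D1, of -0.13 ± 0.25, neither past the test. Cdkn1a, the inhibitor p21, stood at 1.74, 1.74 and 1.63 on day 2 and at 1.48, 1.48 and 1.24 on day 1, a change of 0.30 ± 0.48 (adjusted p = 0.826). The highest of the list was Cks2, a small partner of cyclin-dependent kinases that also serves in mitosis, with 2.10 (named from its value). DNA repair genes had a median of 0.75 over 16 genes, with 11 (68.75%) above on every array pair.

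Among the largest rises of the whole comparison were those of Creb3l3 and Pdk4, genes known from the response to fasting. Of 34 genes listed for fatty acid use and ketone synthesis 32 were tested, 4 rose (0.177% of all genes did) and none fell. On every array pair 24 (75%) stood above, against 11.1% of all genes. The median change was 1.01, which was 0.45 with the scan-day difference (day 4 against the mean of days 3 and 5) subtracted. That difference also holds changes between days 3, 4 and 5, so it cannot isolate a scan effect. On day 1, 14 of the 32 genes had fallen against day 0 (20.8% of all genes fell) and 1 had risen.

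Creb3l3, a transcription factor of the fasting response in liver, rose by 5.14 ± 0.78 (adjusted p = 0.0146), with 1.86, 1.43 and 2.18 on day 2 and -3.89, -2.90 and -3.17 on day 1. Pdk4, the kinase that shuts pyruvate out of oxidation, rose by 4.87 ± 0.89 (adjusted p = 0.0333), with 2.82, 3.46 and 4.21 on day 2 and -1.23, -1.28 and -1.61 on day 1. Angptl4, an inhibitor of lipoprotein lipase, rose by 3.41 ± 0.69 (adjusted p = 0.0493), with 0.22, -0.02 and 0.71 on day 2 and -3.47, -3.05 and -2.78 on day 1. No day 2 array of these genes overlapped day 1, as in all genes that passed the test. Peroxisomal and mitochondrial enzymes of fatty acid oxidation stood higher without passing, in part. Ehhadh had a change of 2.64 (adjusted p = 0.0803), Ech1 of 1.46, Cpt2 of 1.24 and Cpt1a of 1.03, all picked from their values. Acadm, Acadvl and the coactivator gene Ppargc1a lay between -0.02 and 0.11. The peroxisomal enzyme gene Acaa1a had the lowest change of the list, -0.44.

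Pdk4 has 2 probes, both shown here because the rise stands on each of them; each is the first 30 of 60 bases from the array design.
Pdk4, representing probe: tgtaatgttatcagtcctgtgtatcagttg
Pdk4, other probe: gatgctctgcgatcagtattatctaacgtc
They are placed at chr4:30233848-30233907 and within chr4:30239150-30241038 of build rn4, on the minus strand. The other probe had a change of 4.08 ± 1.14, with -0.69, -0.84 and 0.02 on day 2 and -5.85, -4.32 and -3.57 on day 1. It was well above background on 3 day 2 arrays and on 1 day 1 array.

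**Figure D4:**
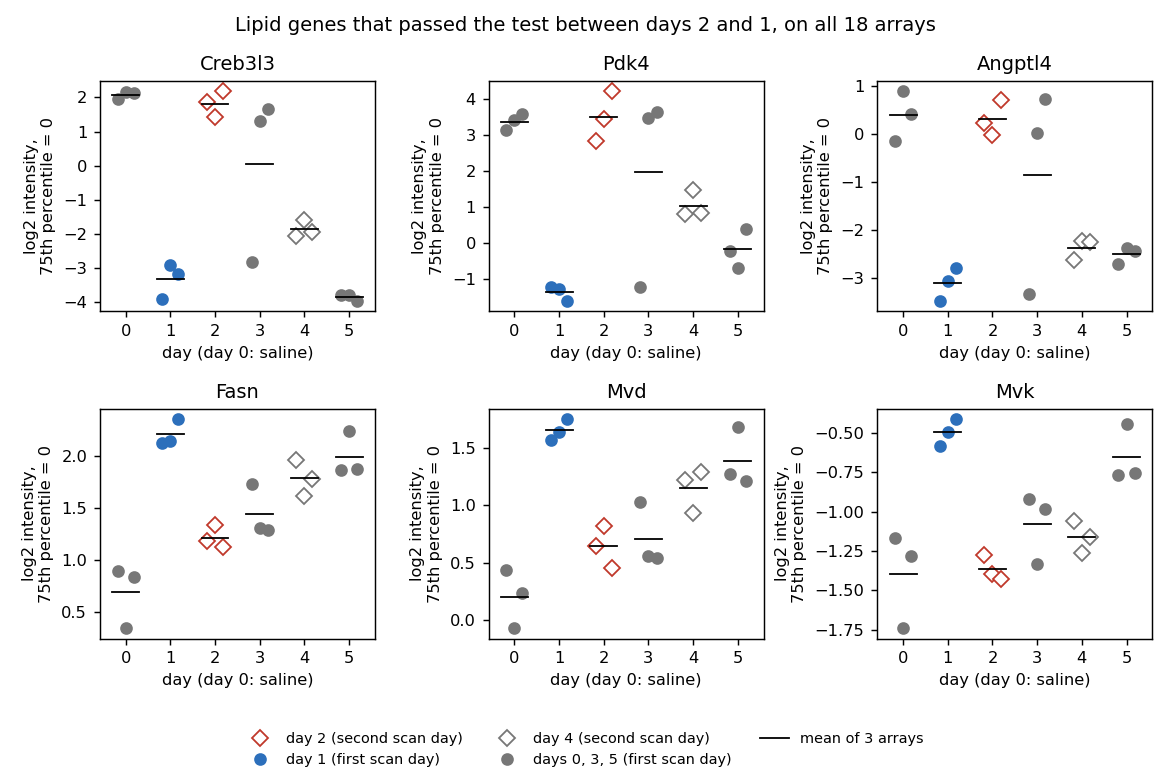
Log2 intensity (array's 75th percentile = 0) of 6 lipid genes on all 18 arrays by day, with open diamonds for the second scan day. Creb3l3, Pdk4 and Angptl4 are high on days 0 and 2 and on day 3 replicates 3 and 4, and low on day 1 and on day 3 replicate 2; Fasn, Mvd and Mvk have their highest mean on day 1.

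These levels moved between arrays of 1 day. The list median on day 3 was 1.65 on replicate 2 and 3.78 and 3.91 on replicates 3 and 4, on day 2 it was 3.65, 3.65 and 4.15, and on day 1 it was 2.09, 2.24 and 1.76. Pdk4 on day 3 stood at -1.24 on replicate 2 and at 3.49 and 3.64 on the other 2. In the fit of days 1, 2 and 3, which takes in that spread, none of the 32 genes passed. The fit of the 6 arrays called 11, all higher, where 1.04% of all genes passed as higher. On the second scan day, Creb3l3 stood at 1.43 to 2.18 on day 2 and at -2.07 to -1.58 on day 4. On the first scan day it stood at 1.94 to 2.17 on day 0 and at -3.89 to -2.90 on day 1. The part of scan day in its rise was not tested. The kidney tubule uses fatty acids heavily, and the proximal tubule markers, median change -0.21, had none of 20 past the test; of them Pck1, an enzyme of glucose synthesis, had the highest change, 2.08 (adjusted p = 0.116). The part of tubular RNA in the rises was not tested.

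Fasn, Mvd and Mvk, enzymes of fatty acid and sterol synthesis, fell on day 2. Fasn, fatty acid synthase, fell by 0.99 ± 0.18 (adjusted p = 0.0333), with 1.18, 1.33 and 1.13 on day 2 and 2.12, 2.14 and 2.35 on day 1. Mvd and Mvk, both of the mevalonate pathway, fell by 1.01 ± 0.19 (adjusted p = 0.0375) and by 0.87 ± 0.17 (adjusted p = 0.0396). These 3 genes stood outside the lists and were chosen after their values were seen. Of 19 listed genes of cholesterol synthesis and uptake 18 were tested, none passed, 10 stood below on every array pair (15.4% of all genes did) and the median change was -0.70. Sqle, squalene epoxidase, had a change of -0.93 ± 0.23 (adjusted p = 0.0868) and Insig1, a sterol-regulated brake on the pathway, of -0.83 ± 0.24 (adjusted p = 0.134). The list had stood 1.30 higher on day 1 than on day 0 by its median, and 0.72 higher on day 2 than on day 0.

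None of 15 clock genes tested passed in the fit of 18 arrays, and 4 passed as lower in the fit of days 1, 2 and 3. That fit, chosen after seeing the data, called 97 of all 23209 genes lower. On every array pair 8 stood below (15.4% of all genes did) and 3 above (11.1%), and the median change was -0.87, which was -0.28 with the scan-day difference subtracted. Dbp, a clock output factor, stood at 0.04, 0.97 and 0.47 on day 2 and at 2.56, 2.19 and 3.62 on day 1, a change of -2.30 ± 0.62 (adjusted p = 0.112). Per3 and Nr1d1, both of the repressing arm, had changes of -1.81 and -1.82, and Bmal1 and Npas2, of the activating arm, of 1.09 and 1.10 (adjusted p = 0.0734 for Bmal1). The 2 probes of Npas2 disagreed in sign. All titles carry the same code beside the day, which the labels do not explain, and no other label speaks of the hour of killing. These genes were picked from the list by their size.

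Other rises past the test included Atp12a, a proton and potassium pump, by 3.44 ± 0.57 (adjusted p = 0.0256), with 0.79, 1.31 and 0.56 on day 2 and -1.95, -2.40 and -3.31 on day 1. Txnip, the thioredoxin-binding protein induced by glucose, rose by 1.32 ± 0.25 (adjusted p = 0.038), with 3.91, 4.01 and 4.14 on day 2 and 2.12, 3.09 and 2.89 on day 1. Colq, the collagen tail of acetylcholinesterase, rose by 2.27 ± 0.46 (adjusted p = 0.0454). Atp12a, Txnip and Colq had changes of -3.59, -1.23 and -2.86 on day 1 against day 0, which passed the test. Batf2 was at least 2.84-fold higher and the olfactory receptor gene Or7g89 at least 1.04-fold higher on day 2, since neither was above background on a day 1 array.

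Ccl7 and Havcr1 were among the falls. Ccl7, a chemokine that draws monocytes, stood at -2.87, -2.68 and -1.91 on day 2 and at 0.24, -0.13 and 1.56 on day 1, and fell by 3.04 ± 0.62 (adjusted p = 0.0493). It had risen by 4.70 on day 1 against day 0. Ccl2, a chemokine for the same cells, averaged 1.97 ± 0.38 on day 2 and 3.66 ± 0.73 on day 1 (SD, n = 3 each) with no overlap, a change of -1.69 ± 0.47 (adjusted p = 0.123). Over the 20 chemokine and cytokine genes tested 1 fell (0.211% of all genes did). On every array pair 4 (20%) stood below and 1 (5%) above, against 15.4% and 11.1% of all genes. The median was -0.29, which turned to 0.11 with the scan-day difference subtracted. Ccl20, a chemokine for lymphocytes and dendritic cells, had the highest change of that list, 2.70 ± 0.57 (adjusted p = 0.0582, named from its value). Havcr1, kidney injury molecule 1 of tubule cells, fell by 3.07 ± 0.49 (adjusted p = 0.0199), with -3.98, -4.94 and -4.70 on day 2 and -1.55, -2.32 and -0.54 on day 1; on day 2, 1 of 3 arrays measured it above background. Il24, a cytokine, was at least 3.15-fold lower, and Lrrc10, known from heart muscle, at least 3.66-fold lower on day 2, where neither was above background; on day 1, 2 of 3 arrays measured Il24 and 3 of 3 Lrrc10.

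Mybpc2 and Mypn, genes of the muscle sarcomere, fell by 1.91 ± 0.35 (adjusted p = 0.0346) and by 1.89 ± 0.34 (adjusted p = 0.0326). Slc4a8, a sodium bicarbonate transporter, fell by 1.55 ± 0.20 (adjusted p = 0.00634), with -3.17, -2.81 and -3.09 on day 2 and -1.09, -1.56 and -1.76 on day 1. It was also the 1 gene that passed between days 3 and 1, with a change of -1.67, a comparison that uses the same day 1 arrays. Ccno, which encodes a cyclin-like protein of multiciliated cells, fell by 2.84 ± 0.48, with -0.49, -0.54 and 0.04 on day 2 and 2.55, 3.11 and 1.86 on day 1. The channel gene Hcn3 fell by 1.40 ± 0.25, the autophagy regulator Rubcn by 1.35 ± 0.25 and the olfactory receptor gene Or4d2 by 1.73 ± 0.33. Gimd1, above background on 2 of 3 day 1 arrays and on no day 2 array, was at least 2.12-fold lower. Or1e21b was above background on none of the 6 arrays and has no fold.

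Several called genes were also apart on day 4, the other day of the second scan day. Krt72, a keratin of the hair follicle sheath, had the lowest adjusted p of the comparison, 1.13e-05, and was at least 2.97-fold higher on day 2, where it stood at -2.56, -2.97 and -2.75 against -6.97, -5.94 and -6.93 on day 1. On day 4 it stood at -2.18, -2.48 and -1.75, and on days 0, 3 and 5 no array was above -6.35. Rps26, a ribosomal protein gene, rose by 2.96 ± 0.58 (adjusted p = 0.0421), with 2.75, 2.71 and 2.44 on day 2 and -0.96, -0.30 and 0.29 on day 1, and stood at 2.40, 2.84 and 2.70 on day 4. Over 32 other ribosomal protein genes the median change was -0.04 and none passed. Tsg101, of endosomal sorting, and Ptpn12, a tyrosine phosphatase, rose by 2.20 ± 0.40 and 2.11 ± 0.37, and stood 2.97 and 1.90 higher on day 4 than on day 3; on day 1, 2 arrays measured Tsg101 above background and 1 measured Ptpn12.

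Of the 41 genes that rose on day 2, 18 were also higher on day 4 than on both day 3 and day 5 by the test, where 0.883% of all genes were. Of the 49 that fell, 11, with Aff2 and Neurog3 among them, were lower on day 4 than on both, where 0.177% of all genes were. Of the 90, 0 went the opposite way. These tests share each gene's estimate of spread. A gene called in 1 of them can therefore pass another more readily than genes in general. Aff2 stood at 4.12, 3.52 and 3.13 on day 2 and at 5.15, 5.11 and 5.31 on day 1, a fall by 1.60 ± 0.30 (adjusted p = 0.038). Neurog3 fell by 1.97 ± 0.35 (adjusted p = 0.0326) and was above background on 1 of 3 day 2 arrays. The mitosis genes had a median change of -0.97 on day 4 against day 3 and of 0.55 on day 4 against day 5, with day 4 arrays at -1.91, -0.10 and 0.06. When the difference of day 4 from the mean of days 3 and 5 was subtracted from that of day 2 from day 1, 8 genes passed, and the mitosis median was 1.93. The subtracted difference also holds changes between days 3, 4 and 5 and the spread of their arrays, so it cannot isolate a scan effect. Whether scan day or the time point set the called genes apart was not tested.

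**Figure D5:**
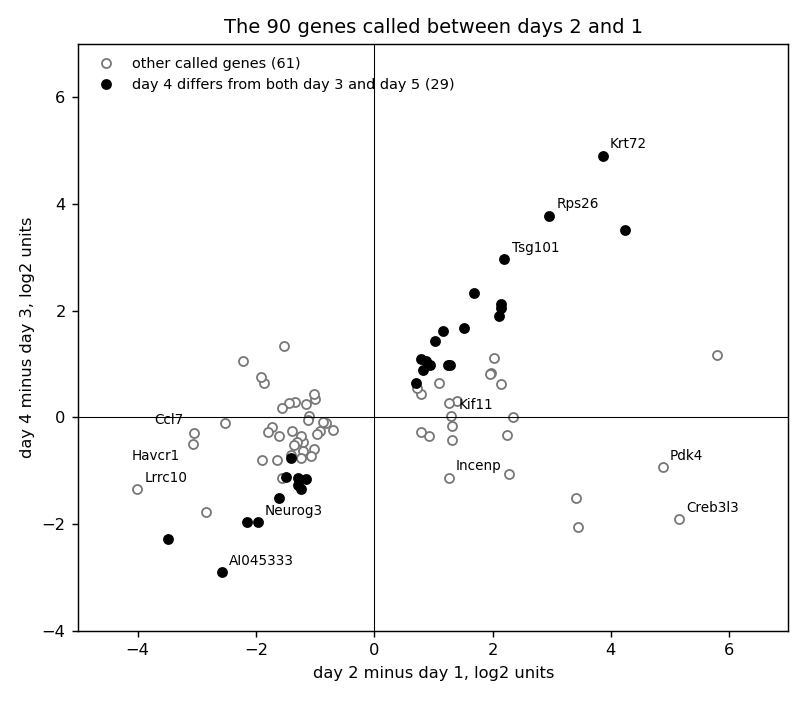
The 90 genes past the test between days 2 and 1, with the change between days 2 and 1 on the x axis and between days 4 and 3 on the y axis, both in log2 units. The 29 genes in black also passed between day 4 and both day 3 and day 5; Krt72, Rps26 and Tsg101 are high on both axes, while Creb3l3 at 5.14 and -1.91 and Incenp at 1.26 and -1.13 are not.

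No marker of mesangial, podocyte, endothelial, macrophage or lymphocyte cells passed the test between the 2 days. Thy1 stood at -1.63, -2.51 and -1.64 on day 2 and at -3.15, -4.14 and -2.73 on day 1, a change of 1.41 ± 0.59 without overlap (adjusted p = 0.288); it had fallen by 3.25 on day 1 against day 0. The mesangial integrin gene Itga8 had a change of 1.25 ± 0.48 and Pdgfrb, the receptor for platelet-derived growth factor, of 1.03 ± 0.39, neither past the test. With normexp, the changes of Thy1 and Itga8 were -0.13 and -0.51. Over 19 mesangial markers the median was 0.32, with 6 above (11.1% of all genes) and 2 below (15.4%) on every array pair. The 2 below were Des, desmin, with a change of -0.88, and Tagln, transgelin, with -0.67, both also listed for smooth muscle. Podocyte markers had a median of 0.11 over 24 genes and endothelial markers of 0.31 over 22, with Nphs1 at 0.20 ± 0.21 and Pecam1 at 0.61 ± 0.35.

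Macrophage markers had a median of -0.09 over 23 genes, which was 0.72 with the scan-day difference subtracted. On every array pair 2 (8.7%) stood above and 3 (13.0%) below, against 11.1% and 15.4% of all genes. Their changes ran from -2.17 for Spp1, osteopontin (adjusted p = 0.0701, and 0.0328 in the fit of 6 arrays), to 1.18 for C1qc, a chain of complement C1q, both named from their values. Cd68, a lysosomal protein of macrophages, stood at 2.88, 3.07 and 2.03 on day 2 and at 2.89, 3.17 and 2.42 on day 1, with overlap. Gpnmb, which rises in lipid-laden macrophages, had a change of -1.02 ± 0.90 (adjusted p = 0.662). Lymphocyte and natural killer cell markers had a median of 0.42 over 15 genes and none was apart on every array pair. The part of infiltrating cells in the mitosis counts was not tested.

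None of 24 early response genes tested passed, and the median was 0.22, with changes from -0.72 for Fosb to 2.24 for Fos. Of the 24, 6 (25%) stood above on every array pair and none below, against 11.1% and 15.4% of all genes. Fos, a subunit of the factor AP-1, stood at -0.08, -0.01 and 0.64 on day 2 and at -2.12, -0.91 and -3.14 on day 1, a change of 2.24 ± 0.86 (adjusted p = 0.247). Zfp36, which destabilises cytokine messages, had a change of 2.16 ± 0.64 and Egr1 of 1.49 ± 0.58. These genes were picked from their values.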

How the data were processed

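Per the file headers, the authors scanned each array and made the processed intensity with Agilent Feature Extraction 10.7.3.1, which subtracts background and detrends within the array; the headers name build rn4. The deposited table of all samples was not used, because its columns share quantiles in 2 separate sets that split days 2 and 1. Control spots and outlier spots (80 to 142 per array) were left out, intensities were taken to log2 and the 75th percentile of the array (raw 181 to 452) was subtracted. Probes entered if well above background on all 3 arrays of at least 1 day (27834 of 41012); 57 values were missing. Of several probes for a gene, the brightest on average stood for it; 21785 probes matched a current symbol. limma 3.58.1 in R 4.3.3 (package data.table, version 1.17.8) fitted 6 days together (lmFit, eBayes), with Benjamini-Hochberg adjustment per contrast over 23209 genes. A fold is "at least" where a group had no array above background: its mean was then taken with each array's lowest detected signal as a minimum. An exact permutation test of 3 against 3 arrays cannot go below 0.1 and was not used. The code was tested on simulated data.

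The arrays and the gene lists were chosen with earlier results of these data known. Named genes are the 15 largest rises and falls with a current symbol, list members past the test, and a set of cell cycle, mesangial, metabolic and inflammatory genes; others are said to be picked from their values. Of the names in the 39 lists, 2 were not found. Alternatives covered scaling, background, filters, probes, slide, scan day, the arrays fitted and each array left out. Results for some of the genes the rule names are not reported here.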

Additional observations from a re-analysis of the deposited data

How the results depend on the processing

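The 90 calls (41 higher, 49 lower) gave way to many settings; where no other reason is stated, the cause was not tested. Reference gene scaling kept the count near but put 59.4% of calls higher and cyclic loess 59% (72 higher), against 45.6%. With normexp no gene passed (3914 at an unadjusted p under 0.05), the mitosis median was 0.63 with 42 genes above on every array pair, no mitosis gene was called, 2 genes passed between days 3 and 2, and the median of all genes was -0.28. With the background capped at the 99th percentile, an alternative chosen after seeing the data, 76 were lower, the mitosis median was 0.86 and 17 passed between days 3 and 1. Without a filter on dim probes 58 passed (17 higher, 0 mitosis genes), 2 between days 3 and 1 and 46 between days 3 and 2. With probes above background on all 18 arrays 23 were higher, the mitosis median was 1.48 over 75 genes, and 10 and 43 passed between days 3 and 1 and days 3 and 2. With only the 2 groups compared, 350 passed (241 higher, 109 lower, 39 mitosis genes), with 219 between days 3 and 1 and 35 between days 3 and 2. With days 1, 2 and 3, also chosen after seeing the data, 250 passed (153 higher, 97 lower, 53 mitosis genes), with 476 and 41. With the scan-day difference subtracted 8 passed (5 higher, 3 lower, 0 mitosis genes). Reference scaling left 1 mitosis gene. Median, quantile and loess scaling left 0 between days 3 and 1.

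Leaving out 1 array gave 10 to 81 calls (5 to 30 higher, 5 to 51 lower), 0 to 1 mitosis genes called (1 without day 1 replicate 1, 0 without any other array of these days), a mitosis median of 1.52 (without day 2 replicate 2) to 1.99 (without day 2 replicate 4), 0 to 41 calls between days 3 and 1 (0 without day 1 replicate 1 or day 3 replicate 3, 3 without day 1 replicate 4, 5 without day 3 replicate 4, 41 without day 3 replicate 2) and 7 to 63 between days 3 and 2 (7, 21 and 16 without day 2 replicates 4, 3 and 2, and 33 without day 3 replicate 4); each of these fits has 1 array fewer.

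Signs of called genes and of list medians turned as follows. Under normexp: Krt72 -0.059, Or7g89 -0.72, Ptpn12 -0.22, Batf2 -0.33, and the list medians of p53 targets 0.28, oxidative stress 0.15, hypoxia 0.21 and proteasome 0.41. With the scan-day difference subtracted, by which genes high or low on both days 2 and 4 cancel: Krt72 -1.16, Rps26 -1.23, Tsg101 -0.89, Ptpn12 -0.10, Aff2 0.22, Neurog3 0.39, and the medians of p53 targets 0.10, neutrophil markers 0.12, chemokines 0.11 and matrix -0.052. Matrix was -0.038 with capped background, oxidative stress 0.0016 with the filter on all arrays, and p53 targets -0.21 to 0.066 with 1 array left out. Smaller list medians turned as well with the scan-day difference subtracted, macrophage markers to 0.72, complement to 0.11 and heat shock to -0.097. Named genes outside the 90 calls turned too: under normexp Aurkb to -0.011, Mcm5 to -0.68, Mcm6 to -0.19, Ccnd1 to 0.52, Thy1 to -0.13 and Itga8 to -0.51; with the scan-day difference subtracted Cd68 to 0.88, Gpnmb to 0.33 and Ccnd1 to a value above 0; and Mcm5, Mcm6, Cd68 and Ccnd1 also with 1 array left out. The medians of fatty acid and clock genes shrank to 0.45 and -0.28 with that difference subtracted. No paired analysis was possible because days 2 and 1 share 1 replicate number.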
